A study of Mus musculus with 3 samples.

Results

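The genes described here make, sense and move cholesterol and make fatty acids. They form a list of 38 genes, of which 37 had a probe set that carries their symbol alone, out of 18193 genes so named on the array. Acat2, whose enzyme condenses acetyl-CoA ahead of the mevalonate pathway, had no such probe set and was not analysed here. Of several probe sets for a gene, the brightest on average stands for it. The members were listed by function, but with earlier results of these data known.

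RNA came from CD4+CD25- T cells of the spleen and lymph node, taken from female mice aged 6 to 8 weeks on the BALB/c background. All cells, the controls included, lacked both Stat6 and T-bet, the transcription factors of Th2 and Th1 cells, so every difference below is between cytokine conditions in double-deficient cells. Stimulation lasted 2 days, by anti-CD3 bound to the plate (5 µg/ml) and anti-CD28 (1 µg/ml). The IL-6/TGFβ culture received IL-6 at 10 ng/ml and TGFβ at 5 ng/ml, the IL-6/IL-23 culture received IL-6 at 10 ng/ml and IL-23 at 10 ng/ml, and the TGFβ culture received TGFβ at 5 ng/ml. Each condition has 1 array and no replicate, and the labels do not say how many mice were pooled. The differences below therefore compare 3 arrays, and no p-value can be given. The study set IL-6/TGFβ against TGFβ, and IL-6/TGFβ against IL-6/IL-23, to search for genes that go with IL-10 during Th17 polarization.

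Cells make cholesterol from acetyl-CoA through mevalonate, squalene and a chain of sterol intermediates, some of which can bind RORγt, the transcription factor of Th17 cells. When membrane sterol is scarce, the SCAP protein escorts the SREBP transcription factors out of the endoplasmic reticulum, and they switch on the genes of sterol and fatty acid synthesis. INSIG proteins hold SCAP back when sterol is plentiful, and oxidized sterols activate the LXR receptors, which switch on cholesterol efflux genes. T cells that start to divide raise lipid synthesis to build membranes.

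Levels are quantile-normalized intensities in arbitrary units, comparable between arrays for 1 gene but not between genes. Values at or below 50.1 were raised to that floor, set at the 95th percentile of probe sets for genes of other tissues. Where 1 array of a pair lies at the floor, the ratio is only bounded and is given as "at least". Before normalization the median intensity was 28.1 for IL-6/TGFβ, 17.8 for IL-6/IL-23 and 35.8 for TGFβ. All 6 measured T cell markers were above the floor on every array, whereas 5 of 7 myeloid and 3 of 4 B cell markers were above it on none. Of 6 CD8 T and NK cell markers, 2 were above the floor on every array and 3 on 1 or 2 arrays. Cd8a read 80.2, 120 and 145 with IL-6/TGFβ, IL-6/IL-23 and TGFβ, and Cd8b1 read 104, 174 and 140. The only error available is the spread of log2 ratios between probe sets of the same gene, with an SD of 0.26 for IL-6/TGFβ relative to TGFβ, 0.33 for IL-6/TGFβ relative to IL-6/IL-23 and 0.34 for IL-6/IL-23 relative to TGFβ. It leaves out differences between cultures, mice and arrays. In these bulk samples, fewer cells of a type and less RNA per cell cannot be told apart.

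Of the 37 genes, 33 were above the floor on all 3 arrays. Npc1 and Pltp were above it on 2 arrays, and Fads2 and Abca1 on 1, so those 4 had to differ where they are called. Among the 33, the highest and lowest arrays were less than 2-fold apart for 29 genes and less than 1.5-fold for 19. The 4 genes with a wider range were Lss, Scd1, Abcg1 and Stard10.

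**Figure D1:**
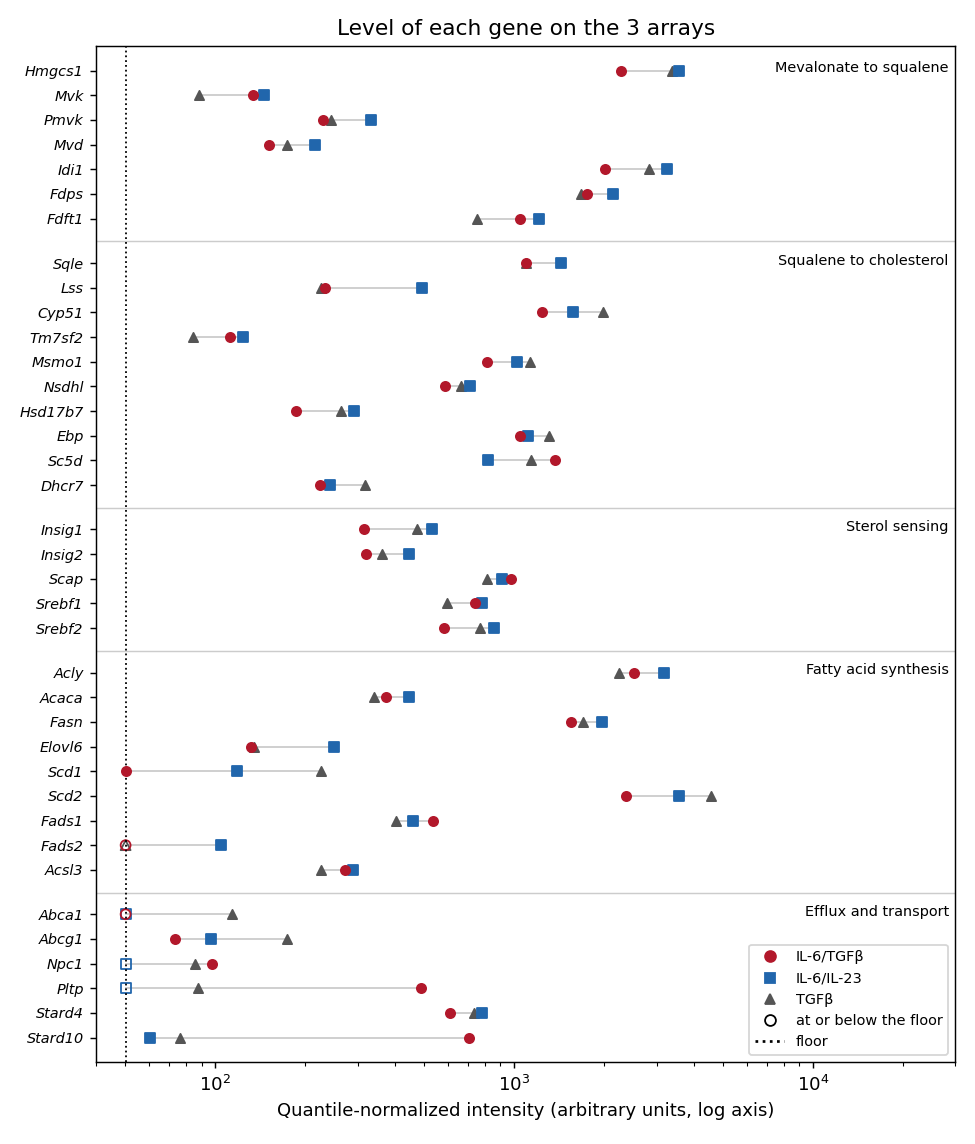
Quantile-normalized intensity (log axis, arbitrary units) of the 37 measured genes on the IL-6/TGFβ (circles), IL-6/IL-23 (squares) and TGFβ (triangles) arrays, 1 array each and no error bars. Open symbols are at or below the floor of 50.1 (dotted line); Stard10 and Pltp stand far to the right on the IL-6/TGFβ array, at 707 and 488, and Scd1, at 50.4, lies barely above the floor there.

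For IL-6/TGFβ relative to TGFβ, 36 members could be read. By the 2-fold rule 2 of them were higher and 3 lower, in an array pair where the same rule called 5.00% of 9389 genes, 2.80% as higher and 2.19% as lower. The higher genes were Stard10 and Pltp, and the lower genes were Scd1, Abcg1 and Abca1. At 1.5-fold 3 members were higher and 6 lower, where 15.0% of all genes were called, 8.14% as higher and 6.87% as lower, with Mvk joining the higher genes and Cyp51, Insig1 and Scd2 the lower. The median log2 ratio of the 36 members was -0.11, against 0.03 for all genes. Without scaling 2 members were higher and 6 lower at 2-fold, where 8.49% of all genes were called and their median was -0.41.

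For IL-6/TGFβ relative to IL-6/IL-23, 36 members could be read, and by the 2-fold rule 2 were higher and 3 lower. Of all 9566 genes read, 7.59% were called, 3.94% as higher and 3.65% as lower. Stard10 and Pltp were again the higher genes, and Scd1, Lss and Fads2 were lower. At 1.5-fold, 4 members were higher and 8 lower, where 21.5% of all genes were called, 10.4% as higher and 11.0% as lower. Sc5d and Npc1 joined the higher genes, and Hmgcs1, Idi1, Hsd17b7, Insig1 and Elovl6 the lower. In all, 30 of the 36 members had a ratio below 0, with a median of -0.34 against -0.04 for all genes. The same number, 83.3%, lay below the median of all genes in this pair. Without scaling, Scd1 (-0.43), Lss (-0.59) and Fads2 (-0.25) were no longer 2-fold lower here. Then 3 members were 2-fold higher and 0 lower, where 13.2% of all genes were called and their median was 0.41. This comparison and the preceding one share the IL-6/TGFβ array, so the same genes can appear in both through that array alone. The conditions here differ in both TGFβ and IL-23, and no ratio belongs to either cytokine alone.

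For IL-6/IL-23 relative to TGFβ all 37 members could be read. The conditions of this pair differ in IL-6, IL-23 and TGFβ, and no ratio belongs to any of these cytokines alone. Lss and Fads2 were at least 2-fold higher and Abca1 at least 2-fold lower, which is 3 of 37 where 7.21% of 9468 genes were called, 3.68% as higher and 3.54% as lower. That share is close to the background. Without scaling, Lss (0.18) and Fads2 (0.25) were not 2-fold higher here, and averaging probe sets also ended both calls (0.80 and 0.71). With the floor raised to 305, Stard10 was the 1 member still called in each comparison with IL-6/TGFβ, and 0 were called in this pair. Of all genes, 3.01% were then called for IL-6/TGFβ relative to TGFβ, 4.88% relative to IL-6/IL-23 and 4.5% in this pair. At 1.5-fold 5 were higher and 5 lower (19.7% of all genes called, 10.7% as higher and 9.00% as lower), the higher ones being Mvk, Fdft1, Lss, Elovl6 and Fads2, and the lower ones Scd1, Abca1, Abcg1, Npc1 and Pltp. The median of the members was 0.17, against 0.06 for all genes. Without scaling 0 members were higher and 11 lower at 2-fold, and 0 and 25 at 1.5-fold. Of all genes, 35.3% and 73.6% were then called, with their median at -0.83.

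**Figure D2:**
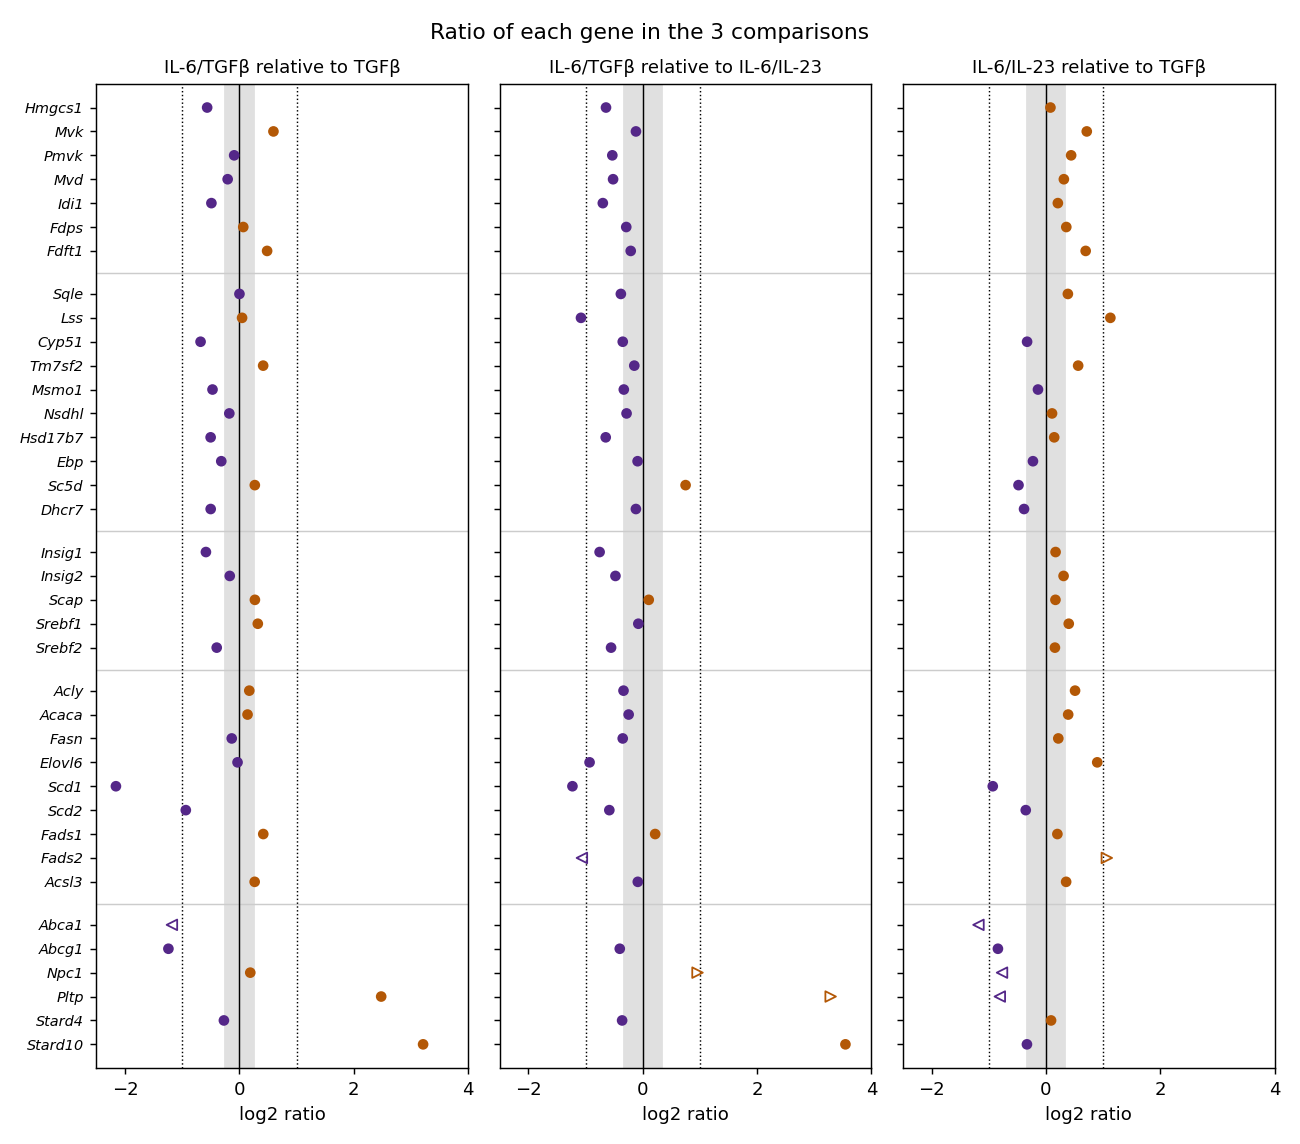
Log2 ratio of each measured gene for IL-6/TGFβ relative to TGFβ, IL-6/TGFβ relative to IL-6/IL-23 and IL-6/IL-23 relative to TGFβ. Orange points are above 0 and purple points below 0, open triangles are lower bounds with 1 array at the floor, the grey band is 1 SD of the probe-set spread (0.26, 0.33 and 0.34) and dotted lines mark 2-fold; in the middle panel 30 of 36 genes lie below 0.

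The early enzymes turn acetyl-CoA units into mevalonate and then squalene. Hmgcs1, the cytosolic HMG-CoA synthase that feeds mevalonate synthesis, read 2285 with IL-6/TGFβ, 3566 with IL-6/IL-23 and 3380 with TGFβ. It was lowest with IL-6/TGFβ and nearly level on the other arrays, with log2 ratios of -0.56 over TGFβ and -0.64 over IL-6/IL-23. Its 3 further readable probe sets ran from -1.16 to -0.38 over TGFβ and from -1.20 to -0.41 over IL-6/IL-23, all in the same direction. Idi1, the isomerase of the isoprenoid building block, read 2009 with IL-6/TGFβ, 3259 with IL-6/IL-23 and 2822 with TGFβ. Its ratios were -0.49 over TGFβ and -0.70 over IL-6/IL-23, and a further probe set gave -0.86 and -0.49, so both probe sets were lowest on the IL-6/TGFβ array. They differed in sign for IL-6/IL-23 relative to TGFβ, at 0.21 by the brightest and -0.37 by the further one.

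The promoter of Hmgcs1 is shown with that of Insig1, a further gene that was lowest with IL-6/TGFβ, because both hold a match to the core of the sterol regulatory element bound by SREBPs. Capitals mark matches to this core (CACNCCAC), to an E-box (CACGTG) and to a CCAAT box (CCAAT), searched on both strands; none of these overlapped. The sequences, from RefSeq on GRCm38.p6, run 5′ to 3′ from 250 bases before to 50 bases after the start of the gene.
Hmgcs1, chr13:119690101-119690400, plus strand: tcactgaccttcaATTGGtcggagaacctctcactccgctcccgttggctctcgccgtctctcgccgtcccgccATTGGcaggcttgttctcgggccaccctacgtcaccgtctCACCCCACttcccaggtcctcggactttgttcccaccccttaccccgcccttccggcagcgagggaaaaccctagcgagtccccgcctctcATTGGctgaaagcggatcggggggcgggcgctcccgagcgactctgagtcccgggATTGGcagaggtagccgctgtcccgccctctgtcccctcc
Insig1, chr5:28071162-28071461, plus strand: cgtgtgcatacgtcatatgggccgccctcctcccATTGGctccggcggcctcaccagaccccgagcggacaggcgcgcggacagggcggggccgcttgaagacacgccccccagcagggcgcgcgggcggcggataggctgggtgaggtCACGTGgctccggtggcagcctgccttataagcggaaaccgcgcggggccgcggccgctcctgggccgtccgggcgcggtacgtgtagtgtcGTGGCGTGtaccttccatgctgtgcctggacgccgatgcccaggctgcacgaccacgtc
The core CACNCCAC was found in promoters of 3 of 29 listed genes in that table (Acat2, Hmgcs1 and Insig1), or 8.11% of their 37 promoters, against 6.24% of all 32851 promoters. Other members that were lowest with IL-6/TGFβ, such as Idi1, Hsd17b7, Srebf2, Msmo1 and Cyp51, held no match to this core. CCAAT was in 62.2% of the members' promoters and 37.4% of all, and CACGTG in 18.9% and 7.15%. A match describes letters in a short window and not a bound site.

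None of the other enzymes of the mevalonate arm was lower with IL-6/TGFβ than with TGFβ by more than the probe-set spread. Mvk, which phosphorylates mevalonate, read 133 with IL-6/TGFβ, 145 with IL-6/IL-23 and 88.4 with TGFβ, and was lowest with TGFβ (0.59 for IL-6/TGFβ relative to TGFβ). A further probe set of Mvk gave 0.38 for that ratio but -0.07 for IL-6/IL-23 relative to TGFβ, where the brightest gave 0.71, so the ratio of IL-6/IL-23 to TGFβ is not settled by these arrays. Fdft1, the squalene synthase, had the same order by its brightest probe set, with 1048, 1212 and 749 on the IL-6/TGFβ, IL-6/IL-23 and TGFβ arrays. Its ratio over TGFβ was 0.48 (0.28 by a further probe set). That further probe set read 913, 849 and 751, highest with IL-6/TGFβ. It gave 0.18 for IL-6/IL-23 relative to TGFβ, where the brightest gave 0.69. Fdps, which makes farnesyl diphosphate, read 1757 with IL-6/TGFβ, 2146 with IL-6/IL-23 and 1678 with TGFβ, and its ratio over TGFβ was 0.07, within the probe-set spread. Pmvk, which adds the next phosphate after Mvk, read 229, 331 and 244 in the same order of arrays, and Mvd, the decarboxylase, read 151, 216 and 174. Both were brightest with IL-6/IL-23, and both ratios over IL-6/IL-23 were near -0.5 (-0.53 for Pmvk and -0.52 for Mvd), but a further Mvd probe set gave -0.02. Over TGFβ, Pmvk was at -0.09 and Mvd at -0.21, within the probe-set spread, and the further Mvd probe set gave 0.08.

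As a group, the 7 measured genes up to squalene had a median log2 ratio of -0.09 for IL-6/TGFβ relative to TGFβ, -0.52 for IL-6/TGFβ relative to IL-6/IL-23 and 0.35 for IL-6/IL-23 relative to TGFβ. Each of the 7 was below 0 in the middle comparison, from -0.70 to -0.12, and above 0 in the last, from 0.08 to 0.71, by the brightest probe sets. With probe sets averaged, Mvk was at 0.17 in the middle comparison and Idi1 at -0.08 in the last. The IL-6/IL-23 array enters both of these comparisons, so they are not independent.

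From squalene onward the 10 genes split further. Sqle, the squalene epoxidase that commits squalene to sterols, read 1098 on both the IL-6/TGFβ and TGFβ arrays and 1431 with IL-6/IL-23. Lss, the cyclase that closes the sterol rings to give lanosterol, read 233 with IL-6/TGFβ, 492 with IL-6/IL-23 and 225 with TGFβ. It stood out with IL-6/IL-23 and was level on the other arrays, with ratios of -1.08 for IL-6/TGFβ relative to IL-6/IL-23 and 1.13 for IL-6/IL-23 relative to TGFβ. Its 2 further probe sets were mostly below the floor. Before the floor was applied, one read 27.8 with IL-6/TGFβ, 63.1 with IL-6/IL-23 and 45.2 with TGFβ, and the other read 35.5, 40.9 and 32.5 in the same order.

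Cyp51, the demethylase that acts on lanosterol, read 1236 with IL-6/TGFβ, 1575 with IL-6/IL-23 and 1981 with TGFβ. It was highest with TGFβ, at -0.68 for IL-6/TGFβ relative to TGFβ and -0.35 for IL-6/TGFβ relative to IL-6/IL-23, and a further probe set gave -1.05 and -0.49. Like the pair above, Cyp51 was lowest with IL-6/TGFβ, and its promoter is shown beside theirs. This promoter holds a CCAAT box, in capitals, and no match to CACNCCAC or CACGTG.
Cyp51, chr5:4104648-4104947, minus strand: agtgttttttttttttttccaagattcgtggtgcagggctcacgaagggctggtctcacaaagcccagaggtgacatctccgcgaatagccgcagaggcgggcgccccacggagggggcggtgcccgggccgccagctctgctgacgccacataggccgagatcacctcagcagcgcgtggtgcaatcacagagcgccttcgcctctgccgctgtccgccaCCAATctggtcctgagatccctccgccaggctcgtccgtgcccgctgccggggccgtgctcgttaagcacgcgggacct
Msmo1, the methyl sterol oxidase of the next steps, had the order of Cyp51, at 812, 1021 and 1126 on the IL-6/TGFβ, IL-6/IL-23 and TGFβ arrays (-0.47 over TGFβ). Nsdhl, which removes carboxyl groups with the C4 demethylation complex, read 587, 714 and 663, and its ratios of -0.18 and -0.28 lay within the probe-set spread.

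Hsd17b7, the ketoreductase of the same complex, read 186 with IL-6/TGFβ, 291 with IL-6/IL-23 and 264 with TGFβ. It was lowest with IL-6/TGFβ by 3 probe sets, the brightest at -0.50 over TGFβ and -0.65 over IL-6/IL-23 and the further ones between -0.81 and -0.60 and between -1.41 and -0.80. Ebp, the sterol isomerase, read 1046, 1113 and 1303 on the IL-6/TGFβ, IL-6/IL-23 and TGFβ arrays, and Dhcr7, which makes cholesterol from its last precursor, read 223, 242 and 316. Both were brightest with TGFβ, at -0.32 (Ebp) and -0.50 (Dhcr7) for IL-6/TGFβ relative to TGFβ, and within the spread over IL-6/IL-23. Tm7sf2, a sterol reductase, ran the other way, at 112, 124 and 84.1 (0.41 over TGFβ).

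Sc5d, which introduces a double bond late in the pathway, was the exception among the 17 synthesis genes by their brightest probe sets. It read 1373 with IL-6/TGFβ, 816 with IL-6/IL-23 and 1139 with TGFβ. By these probe sets it alone had a ratio above 0 for IL-6/TGFβ relative to IL-6/IL-23 (0.75). Further probe sets of Mvk and Fdft1 were also above 0 there, at 0.45 and 0.10. A further Sc5d probe set gave 1.83 there and -1.46 for IL-6/IL-23 relative to TGFβ, where the brightest gave -0.48. Both probe sets thus had Sc5d dimmest with IL-6/IL-23, though the size differed between them, and their average passed 2-fold for IL-6/TGFβ relative to IL-6/IL-23 (1.29). Over the 10 genes from squalene to cholesterol, the median was -0.25 for IL-6/TGFβ relative to TGFβ, -0.31 for IL-6/TGFβ relative to IL-6/IL-23 and -0.02 for IL-6/IL-23 relative to TGFβ.

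Of the 5 regulators, Insig1 and Srebf2 were lower with IL-6/TGFβ in both comparisons by more than the probe-set spread. Insig1, which holds SCAP in the endoplasmic reticulum and is itself a target of SREBPs, read 315 with IL-6/TGFβ, 532 with IL-6/IL-23 and 473 with TGFβ. The IL-6/TGFβ array was the lowest, at -0.59 over TGFβ and -0.75 over IL-6/IL-23, with 1 probe set. Srebf2, which encodes the SREBP that drives sterol genes, had the same order, at 582, 855 and 767 on the IL-6/TGFβ, IL-6/IL-23 and TGFβ arrays. Its ratios were -0.40 over TGFβ and -0.55 over IL-6/IL-23, and a further probe set gave -0.30 and -0.47.

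Srebf1, whose products drive mainly fatty acid genes, did not share that order. It read 742 with IL-6/TGFβ, 783 with IL-6/IL-23 and 594 with TGFβ (0.32 for IL-6/TGFβ relative to TGFβ). Scap, the escort protein, read 979, 910 and 812 (0.27 for IL-6/TGFβ relative to TGFβ). Insig2, the second retention protein, read 320, 445 and 360, with a ratio of -0.48 over IL-6/IL-23 that its 2 further probe sets, at 0.02 and 0.03, did not share. The promoter of Insig1, shown above, holds 1 match each to the sterol core, the E-box and the CCAAT box.

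Among the 9 fatty acid synthesis genes, the 2-fold rule called Scd1 and Fads2, both desaturases. Scd1, a stearoyl-CoA desaturase that makes monounsaturated fatty acids, read 50.4 with IL-6/TGFβ, 118 with IL-6/IL-23 and 225 with TGFβ. It was barely above the floor with IL-6/TGFβ and highest with TGFβ, 4.47-fold lower in the first comparison (-2.16) and 2.34-fold lower over IL-6/IL-23 (-1.23). Its other probe set read 42.6, below the floor, with IL-6/TGFβ, 108 with IL-6/IL-23 and 145 with TGFβ. Scd2, a further isoform of the enzyme, had the same order, at 2375 with IL-6/TGFβ, 3559 with IL-6/IL-23 and 4550 with TGFβ. All 3 readable Scd2 probe sets were lower with IL-6/TGFβ, the brightest at -0.94 over TGFβ and -0.58 over IL-6/IL-23, and the further ones between -0.94 and -0.81 and between -0.74 and -0.59. Scd1 and Scd2 are close paralogs, and whether their probes cross-react was not tested.

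The delta-5 and delta-6 desaturases, which act on polyunsaturated fatty acids, had opposite signs in the comparison with IL-6/IL-23. Fads2 was at the floor on both arrays with TGFβ and read 105 on the remaining one, IL-6/IL-23, which makes it lower with IL-6/TGFβ by at least 2.09-fold. A further Fads2 probe set had its highest value on the same array, at 64.5. Fads1 read 535 with IL-6/TGFβ, 460 with IL-6/IL-23 and 401 with TGFβ, with ratios of 0.22 over IL-6/IL-23, within the probe-set spread, and 0.42 over TGFβ.

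Elovl6, which lengthens palmitate, was highest with IL-6/IL-23, as Fads2 and Lss were. It read 131 with IL-6/TGFβ, 250 with IL-6/IL-23 and 134 with TGFβ. Its ratios were -0.93 for IL-6/TGFβ relative to IL-6/IL-23 and 0.90 for IL-6/IL-23 relative to TGFβ, while a further probe set gave -0.67 and 0.63. Over TGFβ, IL-6/TGFβ did not move it beyond the spread (-0.03).

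The core enzymes of the pathway stayed within 1.5-fold by their brightest probe sets. Acly, which supplies cytosolic acetyl-CoA from citrate, read 2522 with IL-6/TGFβ, 3183 with IL-6/IL-23 and 2238 with TGFβ. Acaca, the acetyl-CoA carboxylase of the committed step, read 374, 443 and 339, and Fasn, the fatty acid synthase, read 1548, 1972 and 1699. All 3 were brightest with IL-6/IL-23, by -0.34, -0.25 and -0.35 for IL-6/TGFβ relative to IL-6/IL-23, close to the SD of 0.33. For IL-6/IL-23 relative to TGFβ, Acly was at 0.51 (0.28 to 0.71 by further probe sets) and Acaca at 0.39, beyond the SD of 0.34. Fasn was at 0.22 there, within it. A further Acaca probe set gave 0.24 there and -0.0053 for IL-6/TGFβ relative to IL-6/IL-23, both within the spread. Acsl3, which attaches fatty acids to coenzyme A, read 271, 288 and 226, and its further probe set had the opposite sign in every comparison. The 8 readable fatty acid genes had a median of 0.05 for IL-6/TGFβ relative to TGFβ, and the 9 had medians of -0.35 for IL-6/TGFβ relative to IL-6/IL-23 and 0.35 for IL-6/IL-23 relative to TGFβ.

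**Figure D3:**
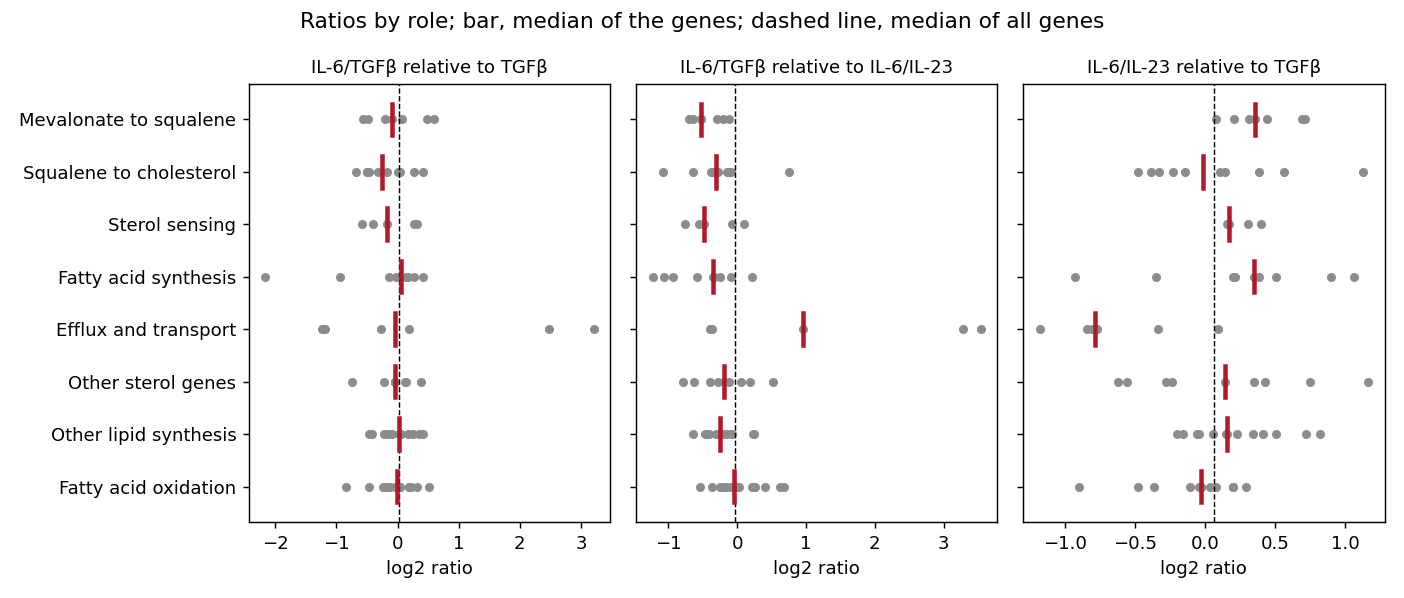
Log2 ratio of each readable gene (grey points, lower bounds included) by role, with the median of the group (red bar) and of all genes (dashed line), for the 3 comparisons. In the middle panel the medians of the 4 synthesis and sensing groups lie between -0.52 and -0.31, left of the all-gene median of -0.04, and that of fatty acid oxidation lies at -0.05.

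Genes that export or carry lipids differed in both directions, and Stard10 and Pltp had the highest ratios among the members in both comparisons with IL-6/TGFβ. Stard10, a phospholipid transfer protein with a START domain, read 707 with IL-6/TGFβ, 60.6 with IL-6/IL-23 and 76.3 with TGFβ. It was high on the IL-6/TGFβ array and near the floor on the others, 9.26-fold higher than with TGFβ and 11.7-fold higher than with IL-6/IL-23, by its 1 probe set. Stard4, a START protein that carries cholesterol and belongs to the sterol-regulated genes, had the opposite order, at 610 with IL-6/TGFβ, 783 with IL-6/IL-23 and 736 with TGFβ. Its ratios were -0.27 over TGFβ and -0.36 over IL-6/IL-23, and 2 further probe sets were lower with IL-6/TGFβ by more, between -0.76 and -0.63 and between -0.90 and -0.46.

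Pltp, the phospholipid transfer protein of plasma lipoproteins and a known LXR target, read 488 with IL-6/TGFβ and 87.6 with TGFβ, and did not exceed the floor with IL-6/IL-23. It was 5.57-fold higher than with TGFβ and higher than with IL-6/IL-23 by at least 9.76-fold. A second probe set read 158 with IL-6/TGFβ and was below the floor on both other arrays. The probe set used, like that of Lss, carries the suffix that marks probes matching more than 1 transcript. The promoters of Stard10 and Pltp are shown because these were the 2 members called higher in both comparisons with IL-6/TGFβ. Capitals again mark the motifs above. Pltp holds a CCAAT box and Stard10 holds none of the motifs.
Pltp, chr2:164857659-164857958, minus strand: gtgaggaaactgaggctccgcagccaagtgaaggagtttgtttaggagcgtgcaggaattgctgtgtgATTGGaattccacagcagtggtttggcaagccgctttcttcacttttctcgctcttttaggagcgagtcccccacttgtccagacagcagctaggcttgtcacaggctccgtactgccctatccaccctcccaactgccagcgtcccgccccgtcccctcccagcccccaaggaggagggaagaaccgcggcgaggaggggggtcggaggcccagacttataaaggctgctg
Stard10, chr7:101316836-101317135, plus strand: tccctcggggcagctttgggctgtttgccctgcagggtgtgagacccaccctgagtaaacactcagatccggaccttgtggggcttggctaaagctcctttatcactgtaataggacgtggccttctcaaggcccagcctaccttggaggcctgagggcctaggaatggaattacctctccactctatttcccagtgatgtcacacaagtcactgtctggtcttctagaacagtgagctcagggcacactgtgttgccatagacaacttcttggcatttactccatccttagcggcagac

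The ABC transporters that pump cholesterol out of the cell, also LXR targets, did not share the pattern of Pltp. Abca1 was at the floor on both arrays with IL-6 and read 114 with TGFβ, so it was lower on each IL-6 array by at least 2.27-fold. Its 2 further probe sets were below the floor on every array. Abcg1 read 73.2 with IL-6/TGFβ, 96.7 with IL-6/IL-23 and 173 with TGFβ, and was highest with TGFβ (-1.24 for IL-6/TGFβ and -0.84 for IL-6/IL-23, each over TGFβ). Macrophages express both transporters at high levels. Mpeg1, a macrophage gene, had the same order as Abca1, at the floor on both IL-6 arrays and at 153 with TGFβ. Before the floor was applied, the normalized intensities of all 7 myeloid markers summed to 198, 185 and 315 on the IL-6/TGFβ, IL-6/IL-23 and TGFβ arrays. Mpeg1 alone gave 153 of the sum for TGFβ, so the sums do not show a shift shared by the list. Lyz2, Cd68, Itgam, Adgre1 and Cd14 were at the floor on every array, and Csf1r read 79.4, at the floor and 63.2. The part of such cells in the values of Abca1 and Abcg1 was not tested.

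Npc1, which releases cholesterol from lysosomes, read 97.3 with IL-6/TGFβ and 85.3 with TGFβ, and did not exceed the floor with IL-6/IL-23. Its lowest array was IL-6/IL-23, and Npc1 was higher with IL-6/TGFβ by at least 1.94-fold. Npc2, its soluble partner, was instead brightest with IL-6/IL-23, at 4346 with IL-6/TGFβ, 7480 with IL-6/IL-23 and 3341 with TGFβ, a ratio of 1.16 for IL-6/IL-23 relative to TGFβ. Npc2 was the only gene in the 4 companion lists whose brightest probe set differed 2-fold in any comparison.

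These companion lists gave the rest of the lipid pathways. Among other sterol genes, 0 of 9 readable genes were 2-fold apart in either comparison with IL-6/TGFβ, and Npc2 was 1 of 9 higher for IL-6/IL-23 relative to TGFβ. Their medians were -0.05 over TGFβ and -0.19 over IL-6/IL-23. Of 13 readable genes of fatty acid elongation, activation and lipid assembly, none was 2-fold apart in any comparison, and their median was 0.02 for IL-6/TGFβ relative to TGFβ and -0.25 for IL-6/TGFβ relative to IL-6/IL-23. Of 14 fatty acid oxidation genes none was 2-fold apart either, with medians of -0.0018 and -0.05 in these comparisons. That count is by the brightest probe sets. The brightest of Cpt1a, which carries fatty acids into mitochondria, gave 0.04 for IL-6/TGFβ relative to TGFβ, but 2 further ones gave -2.39 and -1.15, and one gave -2.46 for IL-6/IL-23 relative to TGFβ. The 9 readable genes of other sterol functions and the assembly genes thus had medians below that of all genes over IL-6/IL-23, while oxidation genes sat at it.

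Of the LXR list, 5 genes could be read and none was 2-fold apart by its brightest probe set. Nr1h3, which encodes LXRα, was at the floor on every array, and Nr1h2, which encodes LXRβ, was not measured. Rxra, a partner of LXR, read 104 with IL-6/TGFβ, 105 with IL-6/IL-23 and 184 with TGFβ (-0.83 for IL-6/TGFβ relative to TGFβ, and -1.24 by a further probe set), and was highest with TGFβ as Abcg1 was. Lpcat3, a phospholipid-remodelling enzyme and LXR target, read 618, 752 and 500, an order that neither Abcg1 nor Pltp had. Smpdl3a, on the same list, read 84.4, 64.1 and 105, highest with TGFβ as Abcg1 was. Mylip (78.9, 66.5 and 62.0) and Rxrb (657, 449 and 509) were highest with IL-6/TGFβ, as Pltp was.

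**Figure D4:**
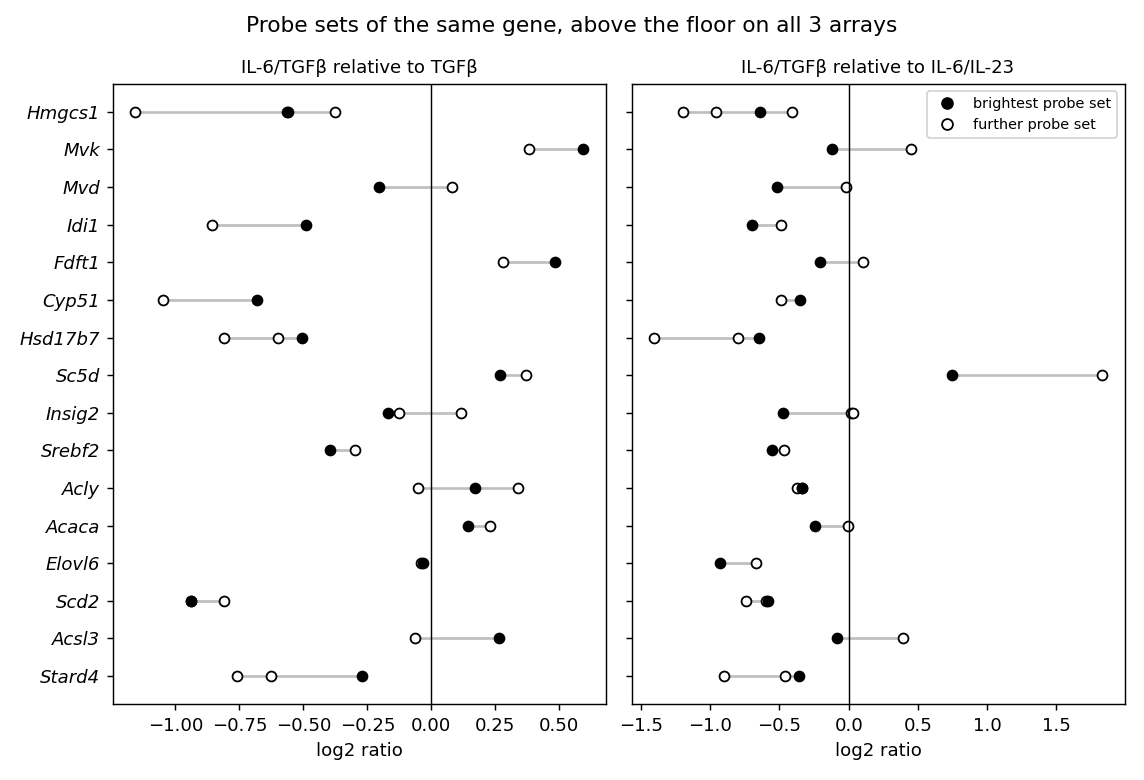
Log2 ratio of each probe set above the floor on all 3 arrays, for the 16 genes with at least 2 of them, for IL-6/TGFβ relative to TGFβ and IL-6/TGFβ relative to IL-6/IL-23. Filled circles are the brightest probe set of the gene and open circles further ones. All probe sets of Hmgcs1, Idi1, Cyp51, Hsd17b7, Srebf2, Scd2, Stard4 and Elovl6 lie below 0 in both panels, and both of Sc5d above 0. Those of Elovl6 lie at -0.03 and -0.04 over TGFβ.

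The plot of probe sets shows where single genes can be read. In both comparisons with IL-6/TGFβ, all probe sets of Hmgcs1, Idi1, Cyp51, Hsd17b7, Srebf2, Scd2 and Stard4 gave ratios below 0. Those of Elovl6 did too, but within the spread over TGFβ (-0.03 and -0.04). The probe sets of Mvk, Fdft1, Insig2 and Acsl3 crossed 0 over IL-6/IL-23, and those of Mvd, Insig2, Acly and Acsl3 over TGFβ. Without scaling, the brightest probe sets of Cyp51 and Stard4 were at 0.06 and 0.08 over IL-6/IL-23. The median of all genes was then 0.41, and the brightest of Hmgcs1, Idi1, Hsd17b7, Srebf2 and Scd2 stayed below 0. Over all members, 24 of 36 ratios for IL-6/TGFβ relative to TGFβ, 23 of 36 for IL-6/TGFβ relative to IL-6/IL-23 and 21 of 37 for IL-6/IL-23 relative to TGFβ were larger than 1 SD of the probe-set spread, as were 44.6%, 44.4% and 42.0% of all genes read. Of these members 19, 18 and 18 were below 2-fold. The brightest probe sets of Hmgcs1, Fdft1 and Hsd17b7 carry the suffix that marks possible cross-hybridization. Without replicate cultures, differences of this size cannot be set against biological error.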

How the data were processed

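Biotin-labelled cRNA from total RNA was measured on Affymetrix mouse arrays; the labelling is as the labels' protocols give it. The authors deposited 1 linear intensity per probe set and array. How probes were summarized, background-corrected and scaled is not given in the sources used here. Of 45101 probe sets, 64 controls were left out, and the log2 intensities were quantile-normalized (limma 3.58.1, R 4.3.3), since array medians differed. This removes any real difference in total mRNA. Of 45037 probe sets, 34945 carried 1 gene symbol in the platform annotation and 932 several, which were not used. The floor came from 95 probe sets of 55 genes of other tissues. Calls needed a 2-fold (or 1.5-fold) ratio, and a gene at the floor on both arrays of a pair was not read. The spread between probe sets was taken from the median absolute difference within genes above the floor on all arrays (3765 genes). The members, gene lists and thresholds were chosen with earlier results of these data known. Every member is named, and companion genes are named when 2-fold apart or where a member's result turns on them. Alternatives changed the scaling, the floor, the filter and the probe-set rule. Promoters came from RefSeq (GRCm38.p6). For arrays, their number limits the precision.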

Additional observations from a re-analysis of the deposited data

How the results depend on the processing

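Medians are given here relative to all genes; those of efflux and transport, which rest on few genes of opposite sign, were -0.07 for IL-6/TGFβ relative to TGFβ, 0.99 for IL-6/TGFβ relative to IL-6/IL-23 and -0.85 for IL-6/IL-23 relative to TGFβ. No member called at 2-fold changed sign under the 7 alternatives. Members below 2-fold did, such as Cyp51, Msmo1 and Stard4, at 0.06, 0.11 and 0.08 relative to IL-6/IL-23 without scaling. Median scaling put the median of all genes at -0.07 for IL-6/TGFβ relative to TGFβ and -0.20 for IL-6/TGFβ relative to IL-6/IL-23. At 1.5-fold it gave 2 higher and 11 lower members in the first pair and 3 and 17, or 20 in all, in the second. Of all genes, 15.3% and 25.8% were then 1.5-fold apart in these pairs. Scd2 (-1.01 over TGFβ) and Elovl6 (-1.04 relative to IL-6/IL-23) passed 2-fold under this scaling. Without scaling, the whole arrays shift by their brightness. Members 2-fold apart then numbered 8 for IL-6/TGFβ relative to TGFβ (2 higher, 6 lower), 3 for IL-6/TGFβ relative to IL-6/IL-23 (3 higher, 0 lower) and 11 for IL-6/IL-23 relative to TGFβ (0 higher, 11 lower). Of all genes, 8.49%, 13.2% and 35.3% were 2-fold apart in these comparisons. Members 1.5-fold apart numbered 20 (2 higher, 18 lower), 6 (5 higher, 1 lower) and 25 (0 higher, 25 lower), where 32.4%, 37.2% and 73.6% of all genes were. The split of higher and lower members thus follows the scaling. Lss (-0.59), Scd1 (-0.43) and Fads2 (-0.25) lost their call relative to IL-6/IL-23, and Lss (0.18) and Fads2 (0.25) theirs for IL-6/IL-23 relative to TGFβ. The efflux and transport median was then 0.35 for IL-6/TGFβ relative to IL-6/IL-23 and -0.21 for IL-6/IL-23 relative to TGFβ. With probe sets averaged, the mevalonate median relative to IL-6/IL-23 was -0.25, against -0.48, and the sensing median relative to IL-6/IL-23 was -0.10. Members 2-fold apart for IL-6/IL-23 relative to TGFβ then numbered 1, where 6.67% of all genes were, and Fads2 was at -0.71 relative to IL-6/IL-23. A floor at the 99th percentile (305) left 1, 1 and 0 members 2-fold apart and 5, 7 and 2 members 1.5-fold apart in the 3 comparisons. Of all genes, 3.01%, 4.88% and 4.5% were then 2-fold apart and 9.71%, 15.7% and 14.1% were 1.5-fold apart. The efflux and transport medians were 0.67 for IL-6/TGFβ relative to TGFβ and 0.049 for IL-6/IL-23 relative to TGFβ. With genes above the floor on both arrays only, 3 members were 2-fold apart for IL-6/TGFβ relative to IL-6/IL-23, where 6.71% of all genes were. For IL-6/IL-23 relative to TGFβ, 1 member was 2-fold and 6 were 1.5-fold apart, where 6.36% and 18.4% of all genes were. The efflux and transport medians in these 2 comparisons were -0.32 and -0.39. Fewer genes were read under both of these settings; the cause of the other shifts was not tested. A floor at the 90th percentile and no floor kept every count within 1.5 times. No paired analysis was possible because each condition has 1 array. Signal near the floor limits Scd1, Fads2, Abca1, Abcg1, Npc1 and Pltp. It also limits the size of the Stard10 ratios, whose lower arrays read 60.6 (IL-6/IL-23) and 76.3 (TGFβ).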
